A study of Sus scrofa with 18 samples.

Results

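Interleukins are secreted signaling proteins of the immune system, and the genes studied here encode them and their receptors in the pig myometrium on day 15, when the conceptus attaches to the uterus. The set held every protein-coding RefSeq gene of the Sscrofa11.1 pig assembly on chromosomes 1 to 18 and X whose symbol begins with IL and a digit. This gave 77 of 19484 protein-coding genes, of which 35 encode ligands, 40 encode receptors and receptor-related chains, and 2 encode other proteins. The last 2 are IL18BP, a secreted protein that binds IL-18, and IL4I1, an amino acid oxidase. A second IL-1 beta gene, IL1B2, is annotated on a sequence with no chromosome, IL3RA is annotated as a noncoding RNA, and the receptor antagonist gene IL1RN has no entry under that symbol, so none of them was a member.

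H3K4me3 and H3K27ac were profiled by CUT&Tag, in which an antibody guides a transposase to the marked chromatin, in 3 tissues of Yorkshire gilts. GD15M_CM is the circular muscle of gilts on day 15 of pregnancy, GD15M_LM is the longitudinal muscle of pregnant gilts on the same day, and CD15M_CM is the circular muscle of cyclic, non-pregnant gilts at day 15 of their cycle. All came from the mesometrial side of the uterus after the endometrium was scraped away, and the pregnant gilts had been mated naturally. Each group had n = 2 gilts with an IgG control for each, 18 libraries in all, but the 2 gilts were pooled before peaks were called, so 1 list of peaks per mark and tissue was available and the variation from gilt to gilt behind any difference between tissues is unknown.

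Most interleukin receptors work as pairs or trios of chains, and 1 chain is often shared by several ligands. IL6ST (gp130) serves IL-6 and IL-11, IL2RG (the common gamma chain) serves IL-2, IL-4, IL-7, IL-9, IL-15 and IL-21, and IL1RAP serves IL-1 and IL-33. Ligand genes are mostly switched on in stimulated immune or epithelial cells, whereas many receptor chains are broadly expressed. H3K4me3 lies mainly at active or poised promoters, and H3K27ac at active promoters and enhancers. Around attachment the pig conceptus secretes interferons into the uterine lumen, and somewhat earlier a form of IL-1 beta.

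For each gene, the peaks from 3 kb before to 3 kb after the gene were taken, and the peak of highest fold enrichment over IgG stood for the gene. Because fold enrichment had a different median in each list (4.86, 5.66 and 4.64 for H3K4me3 and 3.49, 3.79 and 3.53 for H3K27ac), it was turned into a percentile, which is the rank of the peak among all peaks of its own list, and a gene without a peak was given 0. Wherever 3 values follow each other they stand for GD15M_CM, GD15M_LM and CD15M_CM in that order. The lists held 33599, 31910 and 36331 H3K4me3 peaks and 79877, 57010 and 82037 H3K27ac peaks, and the lists themselves give no read depth. All 8 smooth muscle markers, among them MYH11 and ACTA2, had peaks of both marks in all 3 tissues, with medians of 77.0, 90.1 and 87.3 for H3K4me3 and 87.4, 91.0 and 93.2 for H3K27ac. Marker genes of other cell types carried peaks as well. All 7 epithelial and all 7 T cell markers had an H3K4me3 peak in every tissue, against 74%, 74.9% and 75.7% of all protein-coding genes. Macrophage markers with an H3K4me3 peak numbered 6, 7 and 7 of 8, and B cell markers 2, 3 and 2 of 5. Which cells carried these peaks was not tested. In bulk tissue, fewer cells of a type and less of a mark per cell cannot be told apart.

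Interleukin genes carried peaks less often than protein-coding genes as a whole, and the receptors more often than the ligands. An H3K4me3 peak was found at 44, 46 and 45 of the 77 members (57.1%, 59.7% and 58.4%), against 74%, 74.9% and 75.7% of all protein-coding genes. For H3K27ac the counts were 47, 47 and 51 members (61.0%, 61.0% and 66.2%), against 74.1%, 73.3% and 76% of all genes. Among the 35 ligands, 16, 17 and 17 had an H3K4me3 peak and 15, 16 and 17 an H3K27ac peak. Among the 40 receptors, 26, 27 and 26 had an H3K4me3 peak and 30, 29 and 32 an H3K27ac peak. Where a peak was present it also ranked lower than elsewhere in the genome, since the median percentile of the marked members was 70.2, 67.0 and 68.5 for H3K4me3, against 81.5, 80.2 and 82.5 for all marked genes. Only 4, 4 and 3 members reached the 90th percentile of H3K4me3 (5.19%, 5.19% and 3.90%), whereas 20.6%, 19.6% and 22.7% of all protein-coding genes did.

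**Figure D1:**
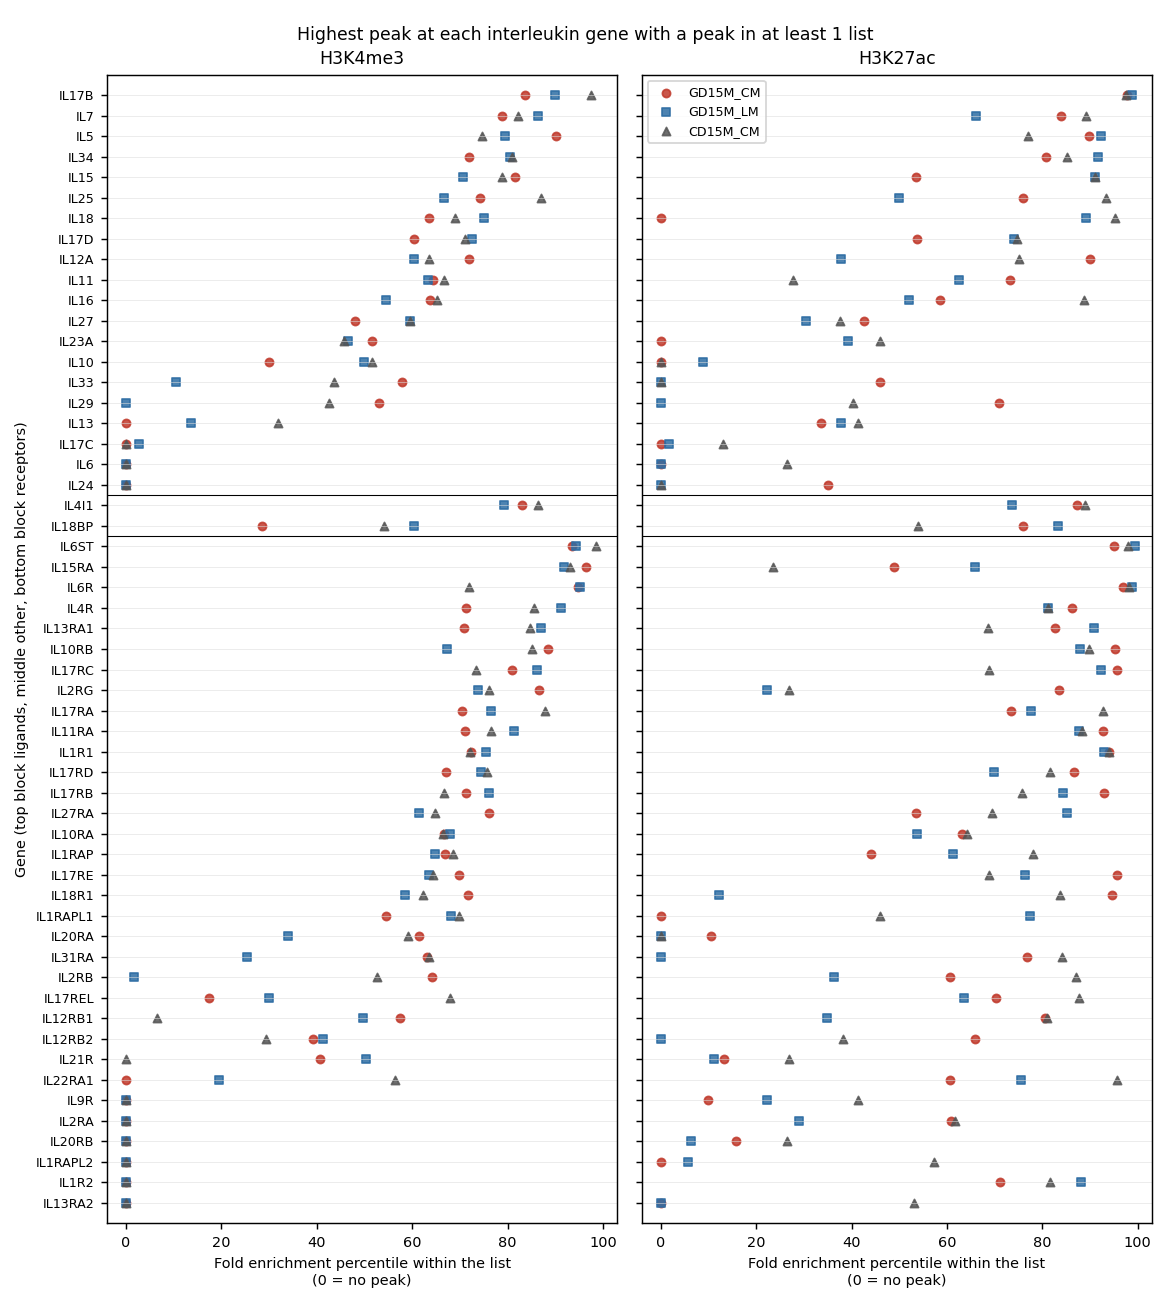
Fold enrichment percentile (x axis, 0 where there is no peak) of the highest peak at each of the 55 members with a peak in at least 1 list, for H3K4me3 and H3K27ac. Circles are GD15M_CM, squares GD15M_LM and triangles CD15M_CM, and the upper block holds ligands, the middle block IL4I1 and IL18BP, and the lower block receptors. H3K4me3 values of 1 gene mostly lie close together, whereas H3K27ac values spread further, as at IL18, IL18R1 and IL31RA.

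The genes differ in length, and a longer gene offers more room for a peak. The median ligand gene was 7236 bp long, the median receptor gene 36878.5 bp and the median protein-coding gene 20697.5 bp. Genes were therefore also compared within classes of length, a split chosen after the values were seen. Among genes of up to 10 kb, 7, 8 and 8 of 22 ligands had an H3K4me3 peak (31.8%, 36.4% and 36.4%), below the 56.0%, 56.5% and 57.7% of all genes of that length. Among genes over 30 kb the order was turned round: 7 of 7 ligands had an H3K4me3 peak in every tissue, but only 16, 16 and 15 of 27 receptors (59.3%, 59.3% and 55.6%), against 85.1%, 86.3% and 87.0% of all genes of that length. The 7 long ligand genes are IL7, IL15, IL16, IL17B, IL17D, IL33 and IL34. Between 10 and 30 kb, 9, 10 and 10 of 11 receptors had an H3K4me3 peak (81.8%, 90.9% and 90.9%) and 2 of 6 ligands in every tissue (33.3%), against 78.8%, 79.7% and 80.2% of all genes of that length. The higher share of receptors over ligands was thus found in the middle class but not in the longest.

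**Figure D2:**
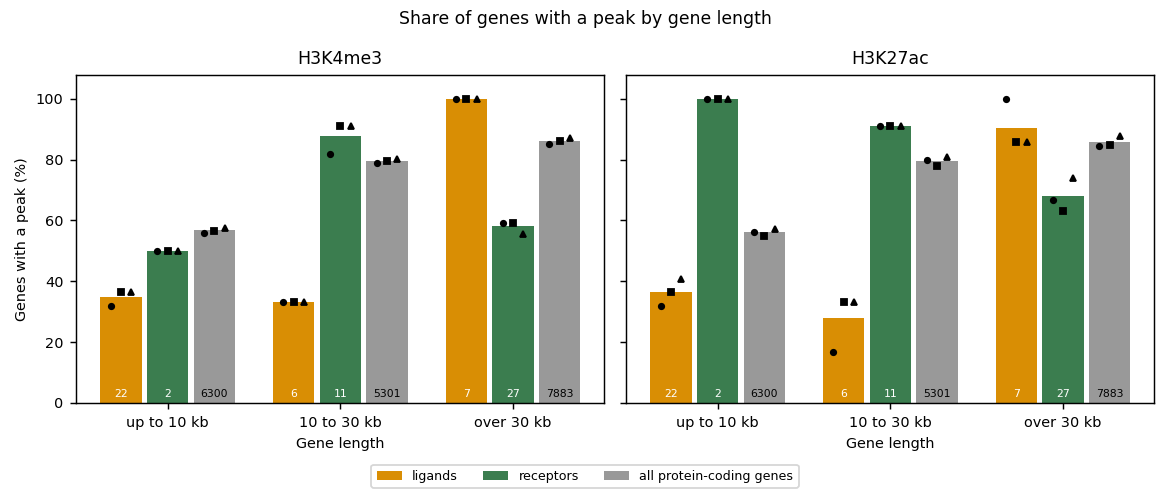
Percentage of ligands, receptors and all protein-coding genes with a peak, by gene length. Bars show the mean of the 3 lists, circles, squares and triangles show GD15M_CM, GD15M_LM and CD15M_CM, and the number in each bar is the number of genes. Short ligands lie below all genes of their length, all 7 ligands over 30 kb have an H3K4me3 peak, and receptors over 30 kb lie below all genes of their length.

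Some interleukin genes had no peak of either mark in any of the 6 lists. They numbered 22 of 77 (28.6%), against 18.6% of all protein-coding genes. Of these, 15 were ligands: the inflammatory cytokine genes IL1A and IL1B, the T cell cytokine genes IL2, IL4, IL9, IL17A, IL17F, IL21, IL22, IL26 and IL31, the IL-12 subunit gene IL12B, the IL-10 relatives IL19 and IL20, and the type III interferon gene IL28B. The other 7 were the receptor genes IL1RL1 (the receptor of IL-33), IL1RL2, IL18RAP, IL22RA2, IL23R, IL5RA and IL7R. The absence of a peak means only that none was called in these lists.

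Unmarked genes often lay beside each other. With members no more than 250 kb apart put into 1 group, a distance chosen after the values were seen, 33 members fell into 13 groups and 44 stood apart. In those groups 16 of 33 members had no peak of either mark in any list, compared with 6 of the 44 that stood apart. Of all protein-coding genes, wherever they lay, 18.6% had none. The grouping was not made for all genes and took no account of gene length, so a part of position was not tested. Pairs without any peak were IL1B with IL1A on chr3:43670126-43731668, IL26 with IL22 on chr5:32568189-32604507, IL17A with IL17F on chr7:46013584-46066039, and IL21 with IL2 on chr8:101532742-101645683. On chr9:67400727-67532407, IL19 and IL20 had no peak between their neighbors IL10 and IL24, which had some. In the T helper 2 region of chr2:134832143-134994365, IL4 had no peak, whereas IL13 and IL5 had peaks that also lay within 3 kb of KIF3A and of RAD50 and SLC22A5.

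Not every peak counted for a member lay at that member alone. The highest H3K4me3 peak of 15, 17 and 17 marked members (34.1%, 37.0% and 37.8%) was also within 3 kb of another protein-coding gene outside the set. Among marked ligands this was so for 7 of 16, 9 of 17 and 8 of 17, and among marked receptors for 6 of 26, 6 of 27 and 7 of 26. Across all protein-coding genes with a peak, the share whose highest H3K4me3 peak was also near another gene was 40.2%, 40.1% and 40.3%. The annotation used here gives no strand, so a peak at a gene end could not be assigned to the start or the finish of transcription.

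The IL-6 receptor genes IL6ST and IL6R were each among the 5 highest members in 5 of the 6 lists. IL6ST, the signal-transducing chain shared by IL-6, IL-11, LIF and oncostatin M, lies on chr16:35101304-35151832. Its H3K4me3 percentile was 93.5, 94.3 and 98.5, from fold enrichments of 22.7, 29.3 and 36.5, and its H3K27ac percentile was 95.1, 99.4 and 98.0. IL6ST was thus high in all 3 tissues for both marks, and its highest peaks overlapped 1 end of the gene. IL6R, which binds IL-6 itself, lies on chr4:95322426-95381393. Its H3K4me3 percentile was 94.7, 95.1 and 72.0, with fold enrichments of 23.8, 30.4 and 13.9. The 2 pregnant layers were close to each other and above the cyclic muscle, where the value was nevertheless that of a marked gene. For H3K27ac, IL6R stood at 97.0, 98.8 and 98.1, with 13, 11 and 14 separate peaks adding up to 18409, 12224 and 17070 bp.

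The other chains of the IL-6 family were also marked. IL11RA, the receptor of IL-11, had H3K4me3 percentiles of 71.2, 81.2 and 76.5 and H3K27ac percentiles of 92.7, 87.7 and 88.3, but its highest H3K4me3 peak also lay at GALT. IL27RA stood at 76.0, 61.3 and 64.7 for H3K4me3, with a peak that was also within 3 kb of RLN3. IL31RA, the receptor of IL-31 and a neighbor of IL6ST on chromosome 16, showed a difference between layers: its H3K4me3 percentile was 63.0, 25.3 and 63.6 and its H3K27ac percentile 76.9, 0 and 84.1. GD15M_LM was the low tissue for IL31RA with both marks. All 5 receptors of the family had an H3K4me3 peak in all 3 tissues.

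The ligands of the family were marked less. IL6, an inflammatory cytokine, had no H3K4me3 peak in any tissue, and its single H3K27ac peak of 310 bp was called in CD15M_CM at the 26.6 percentile. IL11, a cytokine of the decidualizing uterus in other species, had H3K4me3 percentiles of 64.4, 63.2 and 66.6 and H3K27ac percentiles of 73.2, 62.5 and 27.7, and the peak at its end also lay within 3 kb of TMEM190. For IL11 the H3K27ac value of the cyclic muscle was the low one, while H3K4me3 was even. IL27 stood at 48.0, 59.6 and 59.6 for H3K4me3 and 42.6, 30.4 and 37.6 for H3K27ac, and IL31 had no peak.

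In the common gamma chain family, several receptor chains and the long ligand genes IL7 and IL15 carried both marks in every tissue, while IL2, IL4, IL9 and IL21 carried none. IL2RG, the common gamma chain itself, lies on chrX:57143568-57151242 beside MED12, a Mediator subunit gene, and its highest peaks overlapped both windows. Its H3K4me3 percentile was 86.6, 73.8 and 76.0, and its H3K27ac percentile was 83.5, 22.2 and 27. The H3K27ac value of GD15M_CM stood well above the other two. IL2RB, the beta chain of the IL-2 and IL-15 receptors, had H3K4me3 percentiles of 64.1, 1.72 and 52.5 and H3K27ac percentiles of 60.6, 36.3 and 87.0. Its H3K4me3 peak in GD15M_LM was 2999 bp long, about the length of that in GD15M_CM (3079 bp), but its fold enrichment was 2.49 there and 8.29 in GD15M_CM. IL2RA, the alpha chain of activated T cells, had no H3K4me3 peak and stood at 60.9, 28.9 and 61.8 for H3K27ac.

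IL15 and IL15RA form a ligand and receptor pair that supports natural killer and T cells, and both were marked in all 3 tissues. IL15RA, on chr10:65022227-65054385, had H3K4me3 percentiles of 96.4, 91.9 and 93.1, from fold enrichments of 25.7, 27 and 27.5, all over the 90th percentile. Its H3K27ac was lower and more varied at 48.9, 65.8 and 23.6. IL15, on chr8:85666963-85740980, had H3K4me3 percentiles of 81.6, 70.7 and 78.7 and H3K27ac percentiles of 53.5, 91.0 and 91.0. For H3K27ac the ligand was lowest in GD15M_CM, whereas the receptor was lowest in CD15M_CM.

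IL4R, the receptor chain shared by IL-4 and IL-13, lies on chr3:19526343-19576792. It had H3K4me3 percentiles of 71.2, 91.1 and 85.6 and H3K27ac percentiles of 86.2, 81.2 and 81.2, with a summed H3K27ac length of 8383, 3690 and 5018 bp. The percentile of its highest H3K27ac peak was thus even, whereas the summed length was largest in GD15M_CM. IL13RA1, its partner chain, stood at 70.8, 87.0 and 84.7 for H3K4me3 and 82.8, 90.8 and 68.6 for H3K27ac. IL13RA2, a decoy receptor of IL-13, had 1 H3K27ac peak of 413 bp in CD15M_CM (53.2 percentile) and nothing else. IL21R had H3K4me3 percentiles of 40.6, 50.3 and 0, so that it had a peak in both pregnant layers and none in the cyclic muscle, while all 3 of its H3K27ac values were below 30 (13.4, 11.2 and 27). IL9R had only H3K27ac, at 9.83, 22.2 and 41.3. Among the ligands, IL7, the T cell survival factor, stood at 78.8, 86.4 and 82.2 for H3K4me3 and 83.8, 66.2 and 89.2 for H3K27ac.

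The IL-1 family was divided gene by gene. Its 4 placed ligand genes are IL1A, IL1B, IL18 and IL33, and of its 9 receptor genes 4 had H3K4me3 in every tissue: IL1R1, IL1RAP, IL18R1 and IL1RAPL1. IL1R1, the signaling receptor of IL-1, lies on chr3:52192912-52334734. Its H3K4me3 percentile was 72.4, 75.5 and 72.0 and its H3K27ac percentile 94.0, 92.9 and 94.0, with 21, 13 and 22 H3K27ac peaks adding up to 17132, 10844 and 19210 bp, the largest number of H3K27ac peaks of any member in the 2 circular lists. The percentiles at IL1R1 lay close together, but for H3K27ac the highest peak lay at a different place in the gene in each tissue. The number and summed length of its H3K27ac peaks were lowest in GD15M_LM. Its decoy counterpart IL1R2 had no H3K4me3 peak but H3K27ac at 71.2, 88.1 and 81.6. The shared chain IL1RAP had H3K4me3 percentiles of 66.8, 64.8 and 68.5 and H3K27ac percentiles of 44.1, 61.4 and 78.1, lowest in GD15M_CM.

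A row of 6 genes of the IL-1 receptor family lies on chr3:51762111-52406393. IL18R1, the ligand-binding chain of the IL-18 receptor, had H3K4me3 at 71.8, 58.5 and 62.3 and H3K27ac at 94.7, 12.2 and 83.7, so H3K27ac was high in both circular muscles and low in the longitudinal muscle at the same place, a peak of 742, 610 and 740 bp over 1 end of the gene. Its neighbors IL18RAP, IL1RL1 and IL1RL2 had no peak at all in the same lists. Marked and unmarked receptor genes thus lay side by side along this stretch.

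**Figure D3:**
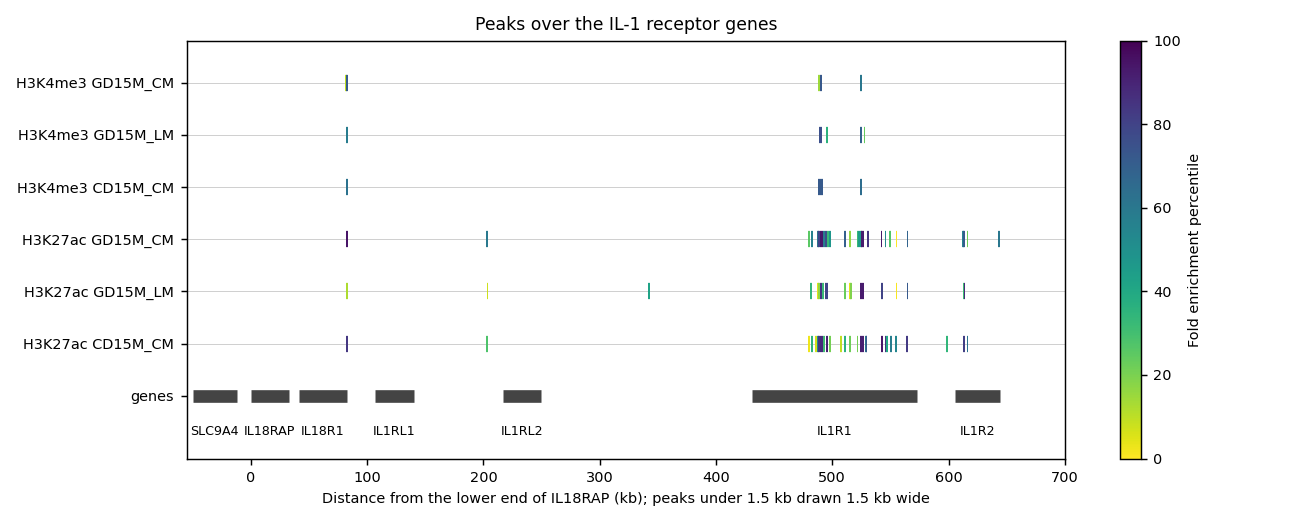
Peaks of the 6 lists over the IL-1 receptor genes, drawn to scale in kb from the lower end of IL18RAP, with color for the fold enrichment percentile. SLC9A4, which is not a member, is drawn only in part, and peaks shorter than 1.5 kb are widened to be seen. Peaks gather at 1 end of IL18R1 and inside IL1R1 and IL1R2, while IL18RAP, IL1RL1 and IL1RL2 are free of them.

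The ligands IL33 and IL18 behaved differently. IL33, an alarmin released by damaged epithelial and stromal cells, lies on chr1:215899830-215941944 and had H3K4me3 percentiles of 57.9, 10.5 and 43.7 and H3K27ac percentiles of 45.9, 0 and 0. GD15M_CM had the highest value for both marks and the only H3K27ac peak, which was 201 bp long with a fold enrichment of 3.40. IL18 had H3K4me3 percentiles of 63.5, 75.0 and 68.9 and H3K27ac percentiles of 0, 89.2 and 95.2. For IL18 it was GD15M_CM that lacked the H3K27ac peak, which was 318 and 307 bp long in the other two and also lay within 3 kb of TEX12 and BCO2. IL18BP, the inhibitor of IL-18, had H3K4me3 percentiles of 28.5, 60.4 and 54.0, also at RNF121. The neuronal gene IL1RAPL1, on chromosome X, had H3K4me3 at 54.5, 68.2 and 69.8 and short H3K27ac peaks only in GD15M_LM and CD15M_CM (0, 77.5 and 46.0).

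The receptors of the IL-17 family were marked throughout: all 6 had peaks of both marks in all 3 tissues. IL17RA, the chain shared by the family, lies on chr5:69461280-69480343, with H3K4me3 at 70.5, 76.5 and 87.9 and H3K27ac at 73.4, 77.6 and 92.8. For both marks the cyclic muscle had the highest value. IL17RC and IL17RE, which lie side by side on chr13:66164492-66194750, shared their highest H3K27ac peak in both circular lists, at 95.7 in GD15M_CM and 68.9 in CD15M_CM. IL17RD, a modulator of growth factor and IL-17 signaling, had H3K4me3 at 67.0, 74.4 and 75.6 and H3K27ac at 86.5, 69.9 and 81.5. IL17REL, a receptor-like gene, had H3K4me3 at 17.3, 30.0 and 67.8, and its peak in CD15M_CM also lay at TTLL8.

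Of the IL-17 ligands, IL17A and IL17F had no peak, and the highest values of the family, at IL17B, belonged to a crowded locus. IL17B is annotated on chr2:150513611-150583640, and its H3K4me3 percentile was 83.7, 89.9 and 97.5 and its H3K27ac percentile 97.7, 98.8 and 97.5. This gene model spans PCYOX1L (chr2:150526002-150539393), LOC100514340 (chr2:150561382-150578201) and the microRNA genes MIR143 (chr2:150578738-150578817) and MIR145 (chr2:150580126-150580211), which are known smooth muscle microRNAs, and overlaps GRPEL2. The highest H3K4me3 peak of the window also lay within 3 kb of AFAP1L1 and GRPEL2. Peaks in the window added up to 41980, 58102 and 54326 bp of H3K4me3 and 51952, 53542 and 56415 bp of H3K27ac. IL25 (IL-17E) stood at 74.2, 66.7 and 87.1 for H3K4me3, with a peak more than 2 kb beyond its end that was also near EFS.

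The IL-10 family had an H3K4me3 peak at 3, 4 and 4 of its 6 receptors and at 1 of its 6 ligands in each tissue. Of the receptors, IL22RA2 had no peak of either mark and IL20RB had H3K27ac only. IL10RB, a chain shared by IL-10, IL-22 and type III interferons, lies on chr13:196853606-196884237 beside the interferon receptor gene IFNAR2, with which its H3K4me3 peak was shared. Its H3K4me3 percentile was 88.5, 67.4 and 85.0 and its H3K27ac percentile 95.3, 87.8 and 89.7. IL10RA, the ligand-binding chain of IL-10, was even across tissues at 66.7, 68.0 and 66.4 for H3K4me3 and 63.1, 53.6 and 64.1 for H3K27ac. The epithelial receptor genes of the family varied more. IL20RA had H3K4me3 at 61.4, 34.0 and 59.1, and IL22RA1 had H3K4me3 at 0, 19.4 and 56.4 and H3K27ac at 60.6, 75.6 and 95.6, highest for both marks in CD15M_CM. IL10, an anti-inflammatory cytokine, was the only ligand of the 6 with H3K4me3 (29.9, 49.8 and 51.6), and it had an H3K27ac peak in GD15M_LM alone (8.76 percentile).

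In the IL-12 family, the shared receptor chain IL12RB1 had H3K4me3 at 57.4, 49.7 and 6.47 and H3K27ac at 80.6, 35.0 and 80.9. H3K4me3 was low in the cyclic muscle and H3K27ac in the longitudinal muscle, so the marks did not pick out the same tissue. IL12RB2, which is carried by type 1 T cells and natural killer cells, had H3K4me3 at 39.1, 41.2 and 29.4 and H3K27ac at 65.8, 0 and 38.2. The subunit gene IL12A stood at 72.0, 60.3 and 63.6 for H3K4me3 and 89.9, 37.8 and 75.1 for H3K27ac. IL23A had its peaks within 3 kb of PAN2, and its H3K27ac peak was called in GD15M_LM and CD15M_CM only (0, 39.3 and 46.0). Among members of other families, IL34, a ligand of the macrophage receptor CSF1R, had H3K4me3 at 71.9, 80.5 and 80.9, also near MTSS1L and VAC14. The type III interferon gene IL29 had H3K4me3 at 53.1, 0 and 42.5 and H3K27ac at 70.9, 0 and 40.4, with no peak in GD15M_LM.

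The remaining marked members can be given briefly. IL16, a chemoattractant of CD4+ cells, stood at 63.8, 54.4 and 65.2 for H3K4me3 and 58.5, 52.1 and 88.7 for H3K27ac. IL17D stood at 60.3, 72.5 and 71.0 and 53.8, 74.1 and 74.6 for the same marks, and IL17RB at 71.3, 76.1 and 66.6 and 92.8, 84.2 and 75.6 with peaks also near CHDH and ACTR8. IL5, the eosinophil cytokine, stood at 90.1, 79.4 and 74.6 for H3K4me3 through the peak near RAD50 and SLC22A5, and IL4I1 at 83.0, 79.2 and 86.3 through a peak near NUP62 and ATF5. These values at IL5 and IL4I1 cannot be assigned to either gene alone. IL13 had H3K4me3 at 0, 13.7 and 31.9 and H3K27ac at 33.7, 37.8 and 41.4, and IL17C had a low H3K4me3 peak in GD15M_LM alone (2.63 percentile). IL24, IL20RB and IL1RAPL2 had no H3K4me3 peak, and their H3K27ac percentiles were 35.0, 0 and 0 at IL24, 15.7, 6.30 and 26.4 at IL20RB and 0, 5.74 and 57.3 at IL1RAPL2.

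The first comparison asked how the circular muscle of pregnancy differed from that of the cycle. A member was counted as ranked higher where its percentiles differed by at least 20 points, which is a description of 2 pooled lists and not a test. For H3K4me3 few members passed: 3 of 77 ranked higher in GD15M_CM (3.90%, against 2.15% of all protein-coding genes), namely IL12RB1, IL21R and IL6R. Those receptors differed by 50.9, 40.6 and 22.8 points. In the other direction, 5 ranked higher in CD15M_CM (6.49%, against 6.09%): IL22RA1 by 56.4 points, IL17REL by 50.5, IL13 by 31.9, IL18BP by 25.6 and IL10 by 21.7. With 77 members, 1 gene is 1.30%, so these counts lay within a few genes of the share of all genes. The difference at IL6R was carried by a peak over the same gene end in both lists. At IL12RB1 different peaks were compared, since the highest of GD15M_CM lay over 1 end of the gene and that of CD15M_CM beyond the other end. The difference at IL17REL stayed at 20 points or more under all 8 alternative settings. Those at IL22RA1 and IL13 were lost with a window of 1 kb, and those at IL18BP and IL10 with neighboring peaks joined. Those at IL12RB1 and IL21R were lost with a stricter threshold on fold enrichment and −log10 p, and that at IL6R with ranking by −log10 p.

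More members differed by at least 20 points for H3K27ac than for H3K4me3, but so did more of all protein-coding genes. Their shares were 11.3% and 12.2% for H3K27ac, against 2.15% and 6.09% for H3K4me3. The larger count is therefore not particular to interleukin genes. The study's own differential analysis of these tissues went the other way, with fewer differential regions for H3K27ac than for H3K4me3. For H3K27ac, 10 members ranked higher in GD15M_CM (13.0%, against 11.3% of all genes). They were the ligands IL33, IL11, IL24 and IL29, the receptors IL12RB2, IL15RA, IL17RC, IL17RE and IL2RG, and IL18BP. Of these, IL17RC and IL17RE were both counted through the same peak. The largest of these differences was 56.6 points at IL2RG, followed by 45.9 at IL33 and 45.6 at IL11. With peaks shared with neighbors left out, IL2RG, IL11 and IL24 kept no difference. That of IL33 stayed there, but it was lost with a stricter threshold on fold enrichment and −log10 p and with the same number of top peaks in every list. The differences of IL12RB2 and IL18BP turned direction under 1 alternative each, to -24.7 with gene ends only at IL12RB2 and to -10.5 with neighboring peaks joined at IL18BP. In CD15M_CM 13 ranked higher (16.9%, against 12.2%): the ligands IL6, IL15, IL16, IL17D, IL18 and IL23A and the receptors IL13RA2, IL1RAP, IL1RAPL1, IL1RAPL2, IL22RA1, IL2RB and IL9R. IL18 led with 95.2 points, and IL1RAPL2 followed with 57.3, while IL15 differed by 37.5 and IL1RAP by 34.0. Without peaks shared with neighbors, IL18 and IL23A kept no difference, and with gene ends only IL1RAPL2 kept none.

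**Figure D4:**
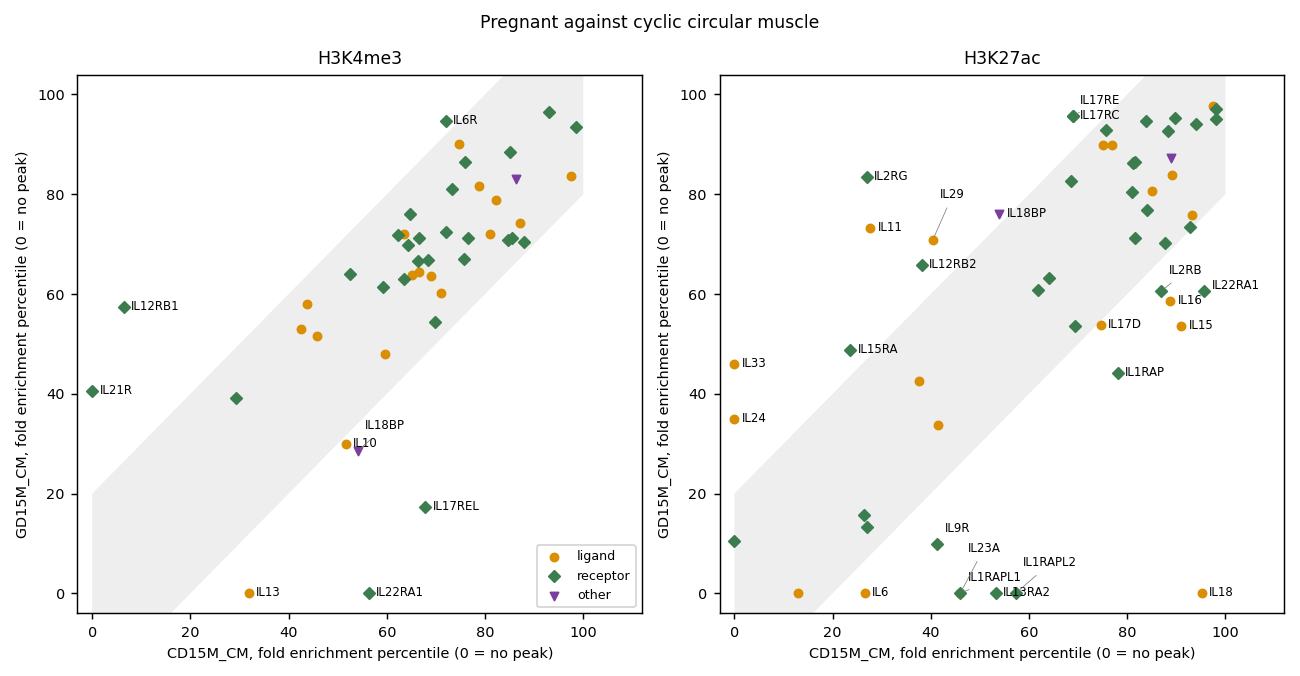
Fold enrichment percentile in GD15M_CM (y axis) against CD15M_CM (x axis) for members with a peak in at least 1 of both lists. Circles are ligands, diamonds receptors and downward triangles IL18BP and IL4I1, and the gray band marks differences under 20 points. For H3K4me3 most members lie in the band, and for H3K27ac 10 named members lie above it and 13 below it.

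Some members had a peak in only 1 of the 2 circular lists. For H3K4me3, IL21R had a peak only in GD15M_CM (1 member, 1.30%, against 0.703% of all genes), and IL13 and IL22RA1 only in CD15M_CM (2 members, 2.60%, against 2.42%). For H3K27ac, IL20RA, IL24 and IL33 had a peak only in GD15M_CM (3 members, 3.90%, against 1.82%), and IL6, IL13RA2, IL17C, IL18, IL1RAPL1, IL1RAPL2 and IL23A only in CD15M_CM (7 members, 9.09%, against 3.72%). All 7 of the latter genes had a summed H3K27ac length under 1000 bp in CD15M_CM, and the peaks at IL6, IL18 and IL1RAPL2 were 310, 307 and 210 bp long. By summed H3K4me3 length, 6 members were at least 2 times and 1000 bp larger in CD15M_CM (7.79%, against 2.79%), namely IL10, IL11, IL17REL, IL18, IL1RAPL1 and IL31RA, and 1, IL21R, in GD15M_CM (1.30%, against 0.539%). H3K27ac length put 1 member, IL31RA, higher in GD15M_CM (1.30%, against 3.02%) and 2 members, IL17D and IL18BP, higher in CD15M_CM (2.60%, against 5.76%).

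The second comparison was between the 2 muscle layers in pregnancy, and it shares the GD15M_CM list with the first. For H3K4me3, 6 members ranked higher in GD15M_CM (7.79%, against 5.23% of all genes) and 1, IL18BP, in GD15M_LM (1.30%, against 5.66%). The 6 were IL2RB by 62.3 points, IL29 by 53.1, IL33 by 47.4, IL31RA by 37.7, IL20RA by 27.4 and IL10RB by 21.1. Without the peak it shares with IFNAR2, IL10RB turned to the other direction. The H3K4me3 difference of IL2RB rests on a peak inside the gene and was absent when the gene ends alone were searched, whereas that of IL31RA held under all 8 alternative settings.

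For H3K27ac, 12 members ranked higher in GD15M_CM (15.6%, against 15.1% of all genes), 5 ligands and 7 receptors: IL12A, IL24, IL25, IL29, IL33, IL12RB1, IL12RB2, IL18R1, IL2RA, IL2RB, IL2RG and IL31RA. IL18R1 differed most, by 82.5 points, followed by IL31RA with 76.9, IL29 with 70.9 and IL12RB2 with 65.8. The difference at IL18R1 stayed at 20 points or more under all 8 alternative settings. In GD15M_LM 6 ranked higher (7.79%, against 10.2%): IL18 by 89.2 points, IL1RAPL1 by 77.5, IL23A by 39.3, IL15 by 37.4, IL27RA by 31.7 and IL17D by 20.3. The differences of IL18 and IL23A were lost here too without peaks shared with neighbors. On the GD15M_CM side, those of IL2RG and IL24 were lost in the same way, and that of IL12RB2 with gene ends only. By summed H3K27ac length, 13 members were at least 2 times and 1000 bp larger in GD15M_CM (16.9%, against 11.2%), among them IL6ST, IL4R, IL16 and IL13RA1, and 2, IL17D and IL18BP, in GD15M_LM (2.60%, against 2.6%).

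A peak in only 1 of both pregnant lists was found at some members. For H3K4me3, IL29 had a peak in the circular layer alone (1 member, 1.30%, against 1.42% of all genes), and IL13, IL17C and IL22RA1 in the longitudinal layer alone (3 members, 3.90%, against 2.32%). For H3K27ac each layer had 6 such members (7.79%). Those of the circular layer were IL12RB2, IL20RA, IL24, IL29, IL31RA and IL33 (against 3.53% of all genes), and those of the longitudinal layer were IL10, IL17C, IL18, IL1RAPL1, IL1RAPL2 and IL23A (against 2.7%). Among the 3 tissues, only GD15M_CM had no H3K4me3 peak counted for IL13, the type 2 cytokine gene (0, 13.7 and 31.9). The peaks in GD15M_LM and CD15M_CM lay 1072 and 1017 bp outside the gene and also within 3 kb of KIF3A. By summed H3K4me3 length, 1 member, IL17RB, a chain of the IL-25 receptor, was larger in GD15M_CM (1.30%, against 1.62%), with 3702, 1569 and 1990 bp. In GD15M_LM 2 members were larger (2.60%, against 3.1%), IL10 with 681, 2878 and 1788 bp and IL1RAPL1 with 512, 1711 and 1959 bp. All of these counts come from 2 pooled lists and rest on 1 to 6 genes each.

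**Figure D5:**
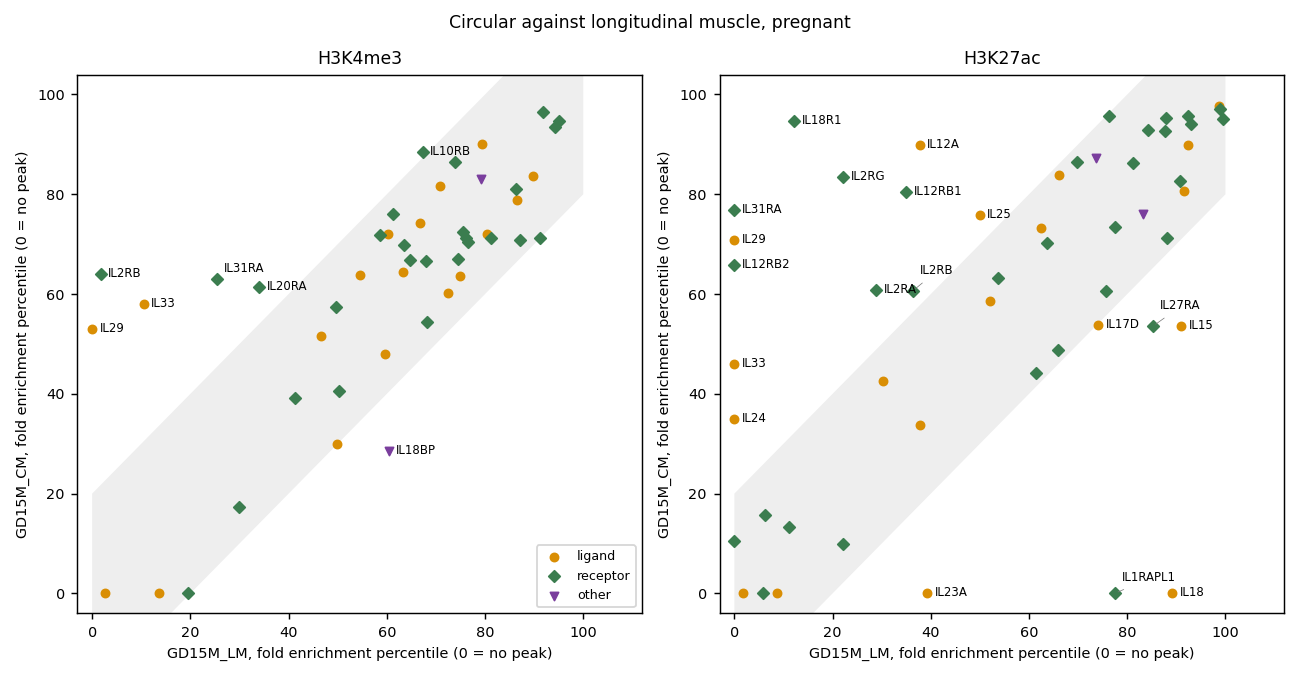
Fold enrichment percentile in GD15M_CM (y axis) against GD15M_LM (x axis) for members with a peak in at least 1 of both lists, with symbols and band as in the plot of pregnant against cyclic muscle. For H3K27ac 12 members lie above the band, 5 of them at 0 in GD15M_LM, and 6 lie below it.

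Marks at genes of other cell types differed between the same lists. For H3K27ac, 5 of 7 T cell markers had a peak in GD15M_CM and 3 in each other tissue, with medians of 64.9, 0 and 0 and ranges of 0 to 74.3, 0 to 63.6 and 0 to 52.0. CD3D and CD3E had no H3K27ac peak in any tissue, and CD2 and CD3G only in GD15M_CM. For H3K4me3, the T cell markers had medians of 66.8, 59.2 and 52.6. Among members known from lymphocytes, IL12RB1, IL12RB2, IL21R and IL2RG ranked higher in GD15M_CM than in CD15M_CM for 1 mark each, and IL2RA, IL2RB, IL2RG, IL12RB1, IL12RB2 and IL18R1 ranked higher in GD15M_CM than in GD15M_LM for at least 1 mark. In both comparisons, IL2RG lost its H3K27ac difference without peaks shared with neighbors, and IL12RB2 lost its own with gene ends only. Other members known from lymphocytes did not follow: for H3K27ac, IL2RB and IL9R were 26.4 and 31.5 points higher in CD15M_CM, and IL7R and IL18RAP had no peak of either mark. These members were picked after their values were seen, and the part of lymphocytes in their values was not tested.

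Epithelial markers also differed between the layers. All 7 had H3K27ac in both circular muscles and 4 in GD15M_LM, where KRT18, KRT19 and GRHL2 had none, with medians of 76.1, 7.45 and 69.8 and ranges of 57.9 to 94.6, 0 to 42.1 and 4.75 to 84.9. Their H3K4me3 medians were 79.4, 59.0 and 78.5. The members IL20RA, IL31RA and IL33, which epithelial cells are known to use, were also lowest in GD15M_LM for H3K4me3, but IL22RA1 was lowest in GD15M_CM (0, 19.4 and 56.4) and IL20RB had no H3K4me3 peak. These members were picked after their values were seen, and the part of epithelium in their values was not tested. Macrophage markers with H3K27ac numbered 4 of 8 in every tissue, with C1QA, C1QB, CD163 and MARCO at 0, and their medians were 31.2, 11.0 and 29.7. B cell markers with H3K27ac numbered 3 of 5 in every tissue, with medians over all 5 of 9.33, 2.63 and 7.24 and ranges of 0 to 36.1, 0 to 75.1 and 0 to 81.4. CD79A stood at 28.5, 75.1 and 81.4 for H3K27ac, lowest in GD15M_CM, and CD79B at 36.1, 2.63 and 78.6, lowest in GD15M_LM, while MS4A1 had no peak of either mark in any list.

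Genes on a fixed list of other parts of interleukin signaling were marked more often than the interleukin genes. The list holds kinases, transcription factors, adaptors, inhibitors, a protease, and related cytokines and receptors. Of its 39 placed genes, 35, 36 and 36 had an H3K4me3 peak and 35 had an H3K27ac peak in every tissue. Their median percentile, with genes without a peak included, was 79.1, 73.9 and 77.9 for H3K4me3 and 86.2, 80.3 and 73.1 for H3K27ac. Taken the same way, all protein-coding genes had medians of 73.6, 72.3 and 75.9 for H3K4me3 and 78.1, 73.0 and 77.0 for H3K27ac. The interleukin genes had 48.0, 34.0 and 51.6 for H3K4me3 and 45.9, 28.9 and 46.0 for H3K27ac. The signaling list thus lay above all protein-coding genes except for H3K27ac in CD15M_CM, where it lay below them. The kinase gene JAK1 stood at 98.9, 93.6 and 92.8 for H3K4me3, STAT3 at 83.6, 73.9 and 94.5 and STAT6 at 87.3, 92.9 and 92.6. No peak of either mark was found at the cytokine genes CXCL8 and CSF2 or at the kinase gene IRAK4 in any tissue.

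Between GD15M_CM and CD15M_CM, 0 of the 39 signaling genes differed by 20 points for H3K4me3 in either direction, against 2.15% and 6.09% of all genes. For H3K27ac 7 ranked higher in GD15M_CM (CASP1, EBI3, IRAK2, MYD88, SIGIRR, SOCS1 and STAT4), which is 17.9% against 11.3% of all genes, and 4 in CD15M_CM (CISH, CNTFR, JAK3 and OSMR), which is 10.3% against 12.2%. CASP1, which encodes the protease that activates IL-1 beta and IL-18, stood at 97.6, 92.7 and 35.8, and MYD88, the adaptor of the IL-1 receptors, at 93.0, 74.1 and 64.5. SOCS1, an inhibitor of cytokine signaling, stood at 83.5, 95.0 and 35.8. CASP1 and SOCS1 were thus high in both pregnant layers and low in the cyclic muscle. The 4 genes ranked higher in CD15M_CM differed by 46.7 points at CNTFR, 32.6 at OSMR, 25.4 at JAK3 and 22.8 at CISH. The alternative settings were not applied to the differences of the signaling list. Between the layers, 1 gene ranked higher in each direction for H3K4me3 (TRAF3IP2 in GD15M_CM and OSM in GD15M_LM; 2.56% each, against 5.23% and 5.66% of all genes). For H3K27ac 5 ranked higher in GD15M_CM (12.8%, against 15.1%) and 4 in GD15M_LM (10.3%, against 10.2%). All of these counts lay within a few genes of the share of all genes.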

How the data were processed

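The authors mapped CUT&Tag reads to Sscrofa11.1 with BWA 0.7.17-r1188, used SAMtools 1.9 and Picard 2.8.3 to discard poorly mapped and duplicate reads, pooled both gilts of a group and called peaks against IgG with MACS2 2.2.6, per the labels and the study's methods. The deposited lists give each peak's position, its length in bp, its fold enrichment (a ratio over IgG), and −log10 p and −log10 q. The headers of the last pair were unreadable, and the larger of both was taken as −log10 p. How mark and IgG were scaled to each other is not given in the sources used here. The deposited lists hold no read counts, so no counting interval is given. The study tabulates the reads of each library in its supplement, and those values were not used here.

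Genes, all 77 members included, came from RefSeq for Sscrofa11.1 without strand. A gene had a peak where at least 1 bp of a peak overlapped the gene with 3 kb on both sides. Percentile (0 without a peak), number of peaks and summed whole peak length were computed in Python 3.11.15 with pandas 2.3.3 and NumPy 2.4.6, and figures drawn with Matplotlib 3.10.9. No test was made, since each group is 1 pooled list. Calls are differences of at least 20 percentile points, a peak in 1 list only, or a summed length at least 2 times and 1000 bp larger. The overlap code was tested on simulated data, with 0 differences over 200 genes. Named genes were the 5 highest members of each list, up to 4 largest differences per mark, comparison and direction, and genes chosen by role. Other calls are listed by symbol, and the remaining members and the neighboring genes named beside a peak were added after their values were seen. The members and all lists, markers included, were chosen with earlier results of these data known. Of the fixed lists, CRLF2, LIFR, CSF2RA, ZAP70 and MSLN had no entry under their symbols. Promoter and protein sequences were not used here.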

Additional observations from a re-analysis of the deposited data

How the results depend on the processing

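No paired analysis was possible because the deposited lists pool both gilts of each group, and for the same reason no replicate could be left out. A window of 1 kb and an overlap of 50% of the peak moved none of the counts by more than 1.5 times. A stricter list, with fold enrichment no lower than 5 and −log10 p no lower than 10, left few H3K27ac peaks at members: 14, 17 and 16 members in GD15M_CM, GD15M_LM and CD15M_CM, of which 3, 5 and 6 were ligands and 10, 11 and 9 receptors. Under it, the members ranked higher for H3K4me3 numbered 7 in GD15M_CM and 8 in CD15M_CM, and 10 in GD15M_LM against GD15M_CM; those for H3K27ac numbered 6 in CD15M_CM against GD15M_CM and 4 in GD15M_CM against GD15M_LM. Without peaks shared with neighboring genes, the ligands with H3K4me3 numbered 10, 11 and 11, those with H3K27ac in GD15M_LM 10, and the members ranked higher in GD15M_LM 2 for H3K4me3 and 3 for H3K27ac. With neighboring peaks joined, 8 members ranked higher in CD15M_CM and 6 in GD15M_LM for H3K4me3. Ranking by −log10 p gave 3 members for each of those, and 3 in GD15M_LM for H3K27ac. With the same number of top peaks in every list, 3 members ranked higher in GD15M_LM for H3K4me3, and for H3K27ac 7 in GD15M_CM and 12 in GD15M_LM. With gene ends only, 2 ranked higher in GD15M_LM for H3K4me3. Differences that turned direction were IL12RB2 for H3K27ac in GD15M_CM minus CD15M_CM (-24.7 with gene ends only), IL18BP for the same (-10.5 with peaks joined) and IL10RB for H3K4me3 in GD15M_CM minus GD15M_LM (-32.8 without shared peaks). Of 48 differences of at least 20 points at named genes, 3 held under every alternative (IL17REL and IL31RA for H3K4me3, IL18R1 for H3K27ac) and 45 were lost under at least 1, most often the stricter list. Counts under the alternatives were made for members alone, without the share of all genes under the same setting. These shifts can therefore not be read as particular to interleukin genes, and their cause was not tested. The lists give no depth, so how far it limits the absence of a peak was not tested.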
